A study of Syringa oblata with 2 samples.

Results

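The nitrogen assimilation enzymes of *Syringa oblata* leaves were followed in RNA-seq libraries from shaded trees (Z1) and from trees in natural light (Z0). They were chosen by an annotation rule that uses no expression values, though with earlier results of these data known. A unigene was taken when its KEGG pathways included the nitrogen metabolism map, when its Swiss-Prot description held no word for a transporter, and when its best match in the Nr protein collection was not rice (*Oryza*). Of 104 unigenes on the map, 5 were left out as named transporters and 15 as rice-matched, which left 84 of the 73159 unigenes in the deposited table. These 84 came from 65 Trinity components, the groups of related sequences in a de novo assembly. A class was assigned to each from its annotation, and 52 of them fell in the 7 classes compared here, namely nitrate reductase (4), nitrite reductase (2), glutamine synthetase (17), ferredoxin-dependent glutamate synthase (1), NADH-dependent glutamate synthase (10), glutamate dehydrogenase (9) and carbonic anhydrase (9). The other 32 are described at the end.

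Z1 leaves grew under black nets that gave 40% to 50% shading, and Z0 leaves grew with no net. All trees stood outdoors on a campus with no added water or fertiliser, the nets were hung in May, and leaves were collected from both groups on the same day in September, at random from selected trees of each group. The trees are not described as clones, and no mutant or transgene was involved. There were 2 libraries per condition, Z1-1 and Z1-2 against Z0-1 and Z0-2, which the methods call biological repeats, while GEO lists 1 sample for each condition, so that libraries were matched to conditions by the names of their columns. How many trees entered a library is not given in the sources used here, and p-values measure the spread between these libraries.

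Plants take up nitrogen largely as nitrate. Nitrate reductase, a molybdenum enzyme of the cytosol, turns nitrate into nitrite, and nitrite reductase, which takes electrons from ferredoxin in the chloroplast, turns nitrite into ammonium. Glutamine synthetase (GS) binds ammonium to glutamate, and glutamate synthase (GOGAT) passes the amide group on to 2-oxoglutarate. In leaves the chloroplastic GS and the ferredoxin-dependent GOGAT also recapture the ammonium that photorespiration sets free. Glutamate dehydrogenase (GDH) works next to this cycle, mostly in the direction of glutamate breakdown in plants. Carbonic anhydrase (CA) interconverts carbon dioxide and bicarbonate, and is drawn on the same map although it binds no nitrogen.

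The values are TPM, a length-corrected share of all transcripts, in which every library sums to about the same total, so that a change in a few very abundant transcripts shifts all others. The depth of the libraries is unknown. In Z1-1 and Z1-2, 0.147% and 0.0505% of TPM lay in 10 carlavirus-matched unigenes, against 22.8% and 13.9% in Z0-1 and Z0-2. Rice-matched unigenes held 3.30% of TPM in Z1-2 and 0.244% to 0.296% in the other libraries. The 44 leaf markers (Rubisco small chain, chlorophyll-binding proteins, photosystem I subunits and oxygen-evolving enhancer proteins) held 2.56% and 2.904% in Z1 libraries against 2.99% and 2.95% in Z0 libraries. Of them 1 (2.27%) was called higher and 3 (6.82%) lower in Z1, against 3.2% and 1.8% of all unigenes. Shading, the trees sampled and the virus level split the 4 libraries the same way and cannot be told apart.

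The members together summed to 5846 and 5852 TPM in Z1-1 and Z1-2, against 5324 and 5566 TPM in Z0-1 and Z0-2. In TPM as listed this total was nearly level, while its parts were not. The carlavirus-matched share lowers all other TPM of the Z0 libraries, and the total without it was not computed. Nitrate reductase, nitrite reductase and the alpha type of carbonic anhydrase stood several-fold higher in both shaded libraries than in both libraries from natural light. The alpha type was set apart after values were seen. Chloroplastic GS, ferredoxin-dependent GOGAT and GDH had overlapping values in the conditions. This overlap is of TPM as listed, with the carlavirus-matched unigenes counted.

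Differences were tested with limma on log2(TPM + 1) over all 73159 unigenes, with the Benjamini-Hochberg adjustment. A unigene was called where its log2 fold change (Z1 minus Z0, on the log2(TPM + 1) scale) exceeded 1 in size and its adjusted p was below 0.05. Of the 84 members, 7 (8.33%) were called higher in Z1 and 2 (2.38%) lower, and 75 were not called. Over all unigenes 3.2% were called higher and 1.8% lower. At an unadjusted p under 0.05 with the same fold, 16 members (19%) were higher and 5 (5.95%) lower, against 16.5% and 7.71% of all unigenes, so that by this looser rule the members' shares lay near the background. Both Z1 libraries lay above both Z0 libraries in 35 members (41.7%, against 41.5% of all unigenes), and the reverse held in 18 (21.4%, against 18.2%). The members' median log2 fold change was 0.31, below the median of 0.45 over all unigenes. Of the 52 members of the 7 classes, 6 were called higher and 0 lower by limma, and 14 and 3 passed the unadjusted rule.

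The calls rest on few libraries. Without Z1-2, Z0-1 or Z0-2, limma called 0 of the members and also 0 of all 73159 unigenes, so that the loss was not particular to the members. Without Z1-1, 8233 of all unigenes were called higher and 145 lower, and among the members 2 and 1, of which 1 (fmdA DN35022_c1_g4, described below) had been called with all 4 libraries. None of the 7 members called higher with all libraries was called in any of these 4 fits. At an unadjusted p under 0.05 with the fold, leaving out Z1-2, Z0-1 or Z0-2 gave 17 higher and 7 lower members, 13 and 6, and 12 and 4. With the carlavirus-matched unigenes left out and TPM rescaled, 4 members were called higher and 2 lower, and with scaling by TMM 3 and 2. Over all unigenes these settings called 1593 higher and 1811 lower, and 1327 and 2264, against 2344 and 1317. The 7 members called higher kept log2 fold changes of 1.37 to 2.07 with TMM, which lowered the median of all unigenes to 0.13. Those still called higher with TMM were NIA2 DN30816_c0_g5, ACA7 DN30111_c0_g2 and cytochrome b5 DN32576_c1_g3. The main nitrite reductase unigene, NIR1 DN30386_c0_g3, was not among them. For a single summed value, an exact permutation test of 2 libraries against 2 cannot go below p = 0.333, so class sums are given without a test.

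**Figure D1:**
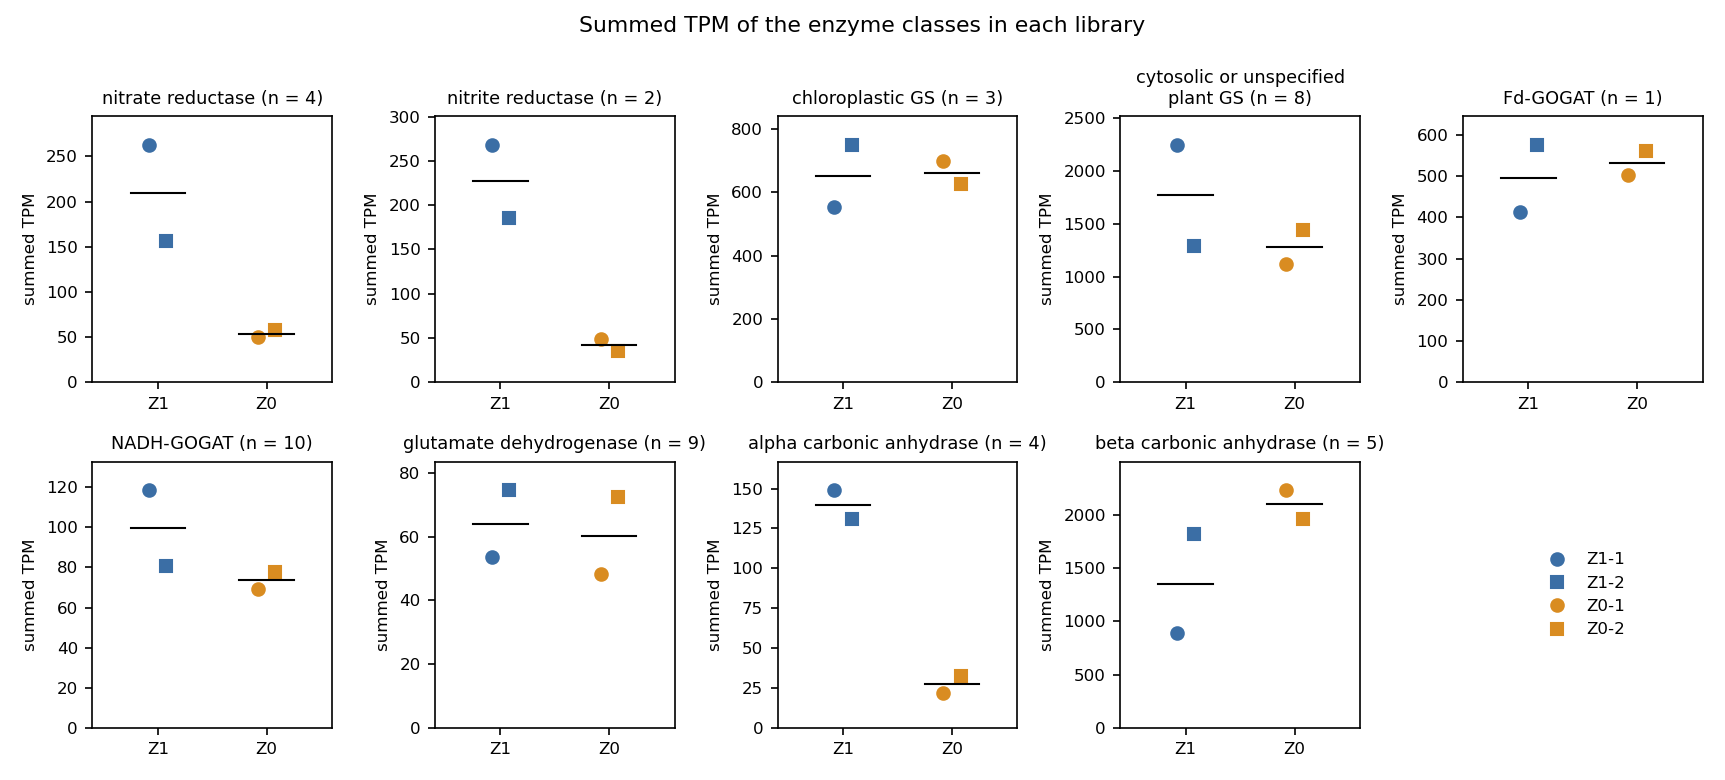
Summed TPM of the unigenes of each enzyme class (vertical axes, starting at 0 and scaled per panel) in the libraries of Z1 and Z0, with circles for library 1, squares for library 2 and a bar at the mean of 2 libraries. Nitrate reductase, nitrite reductase and alpha carbonic anhydrase lie higher in both Z1 libraries, with Z1 means 3.90, 5.37 and 5.11 times those of Z0.

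The 4 nitrate reductase unigenes, all matched to NIA2 (nitrate reductase [NADH] 2), summed to 263 and 156 TPM in Z1-1 and Z1-2, against 49.6 and 57.8 TPM in Z0-1 and Z0-2. The Z1 mean of 209 ± 75.9 TPM was 3.90 times the Z0 mean of 53.7 ± 5.84 TPM (SD, n = 2 each). All 4, from 3 components, had both Z1 libraries above both Z0 libraries, as did 41.5% of all unigenes. By the test 2 of the 4 (50%) rose, against 3.2% of all unigenes.

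The most abundant of them, NIA2 DN30816_c0_g5, a short unigene of 617 bases, had 113 and 76.4 TPM in Z1 libraries, against 14.1 and 20.6 TPM in Z0 libraries. The groups were well apart, and its log2 fold change was 2.37 (SE 0.31, limma adjusted p = 0.040). NIA2 DN37513_c0_g2, of 2489 bases, had 46.0 and 25.9 TPM in Z1 libraries, against 5.71 and 7.51 TPM in Z0 libraries, with a log2 fold change of 2.23 (SE 0.35, limma adjusted p = 0.0472). It too was higher in both Z1 libraries, with Z1-1 the highest. With TMM its log2 fold change was 1.81, and it was not called. A unigene of the same component, NIA2 DN37513_c0_g1, of 2980 bases, moved far less. It had 48.7 and 34.3 TPM in Z1 libraries, against 26.4 and 28.2 TPM in Z0 libraries, and its log2 fold change of 0.57 (SE 0.25, limma adjusted p = 0.222) was not called. In Z0 leaves this unigene was the most abundant of the 4, and in Z1 leaves DN30816_c0_g5 was. The table does not tell whether the pair in component DN37513_c0 are alleles, copies or splice forms, and reads shared between near-identical unigenes could have been split among them.

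The remaining unigene, NIA2 DN32172_c2_g1, of 3003 bases, is singled out after its values were seen, since its mean fell just short of 20 TPM. It had 55.8 and 19.2 TPM in Z1 libraries, against 3.28 and 1.45 TPM in Z0 libraries. Its log2 fold change of 3.39 was the largest rise among all members, but the Z1 libraries lay far apart. With an SE of 0.60 and a limma adjusted p of 0.0529 it was not called.

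Nitrite reductase followed the same pattern in its main unigene. NIR1 DN30386_c0_g3, of 2152 bases, had 266 and 182 TPM in Z1 libraries, against 47.4 and 35.1 TPM in Z0 libraries. It rose with a log2 fold change of 2.402 (SE 0.29, limma adjusted p = 0.038), with the lowest Z1 library far above the highest Z0 library. With TMM its log2 fold change was 1.95, and it was not called. A second unigene of the component, NIR DN30386_c0_g6, was a minor one with 2.68 and 3.04 TPM in Z1 libraries, against 1.45 and 0.55 TPM in Z0 libraries, and was not called (log2 fold change 0.99, limma adjusted p = 0.147). The class summed to 268 and 185 TPM in Z1 libraries, against 48.8 and 35.7 TPM in Z0 libraries.

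Since the reductases act in sequence, their levels were set side by side. The summed nitrate reductase TPM was 0.981 and 0.841 times that of nitrite reductase in Z1 libraries, against 1.01 and 1.62 times in Z0 libraries. The ratio thus differed less between libraries than the sums did, and Z0-2 had the highest one. Set against ferredoxin-dependent GOGAT, nitrite reductase stood at a ratio of 0.650 and 0.321 in Z1 libraries and of 0.0969 and 0.0636 in Z0 libraries. The difference between these classes in their response was not tested.

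Genes that serve these reductases were counted from lists taken by annotation text over the whole table without rice-matched unigenes. Of 9 unigenes for molybdenum cofactor synthesis, which makes the cofactor of nitrate reductase, 0 were called by limma. At an unadjusted p under 0.05 with the fold 2 (22.2%) were higher, against 16.5% of all unigenes. Their median log2 fold change was 0.29, against 0.45 over all unigenes. The 1 unigene of siroheme synthesis, which makes the haem of nitrite reductase, was not called (log2 fold change 0.29). Of 12 unigenes for ferredoxin and its reductase, which feed electrons to nitrite reductase and to GOGAT, 0 were called. By the unadjusted rule 2 (16.7%) were higher and 1 (8.33%) lower, against 16.5% and 7.71% of all unigenes. Their summed level was 3283 and 3553 TPM in Z1 libraries, against 3330 and 3642 TPM in Z0 libraries. Of 13 NLP and PII unigenes, regulators of the nitrate response and of nitrogen status, 1 (7.69%) was called higher, against 3.2% of all unigenes. This was NLP2 DN29007_c0_g3 (in Arabidopsis a transcription factor of the nitrate response), with 3.72 and 3.62 TPM in Z1 libraries, against 0.56 and 0.24 TPM in Z0 libraries (log2 fold change 1.75, limma adjusted p = 0.0495).

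Among 94 nitrate and ammonium transporter unigenes, which bring the substrates into the cell, 5 (5.32%) were called higher and 4 (4.26%) lower. Over all unigenes these shares were 3.2% and 1.8%. The largest level among those that rose was in NRT3.1 DN35874_c0_g7, in Arabidopsis a partner protein of high-affinity nitrate transporters, with 608 and 262 TPM in Z1 libraries, against 42.4 and 44.3 TPM in Z0 libraries. The ammonium transporter AMT1-2 DN30659_c1_g4 had 58.7 and 62.2 TPM in Z1 libraries, against 18.9 and 18.7 TPM in Z0 libraries. Among the 4 that fell, DN31412_c0_g3 had 0.84 and 0.67 TPM in Z1 libraries, against 44.4 and 46.1 TPM in Z0 libraries (log2 fold change -4.72). DN29361_c0_g2, which also fell, had 1.42 and 1.2 TPM in Z1 libraries, against 16.3 and 17.9 TPM in Z0 libraries (log2 fold change -2.97). Calls thus went in both directions in this list, and its median log2 fold change of 0.36 lay below that of all unigenes.

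**Figure D2:**
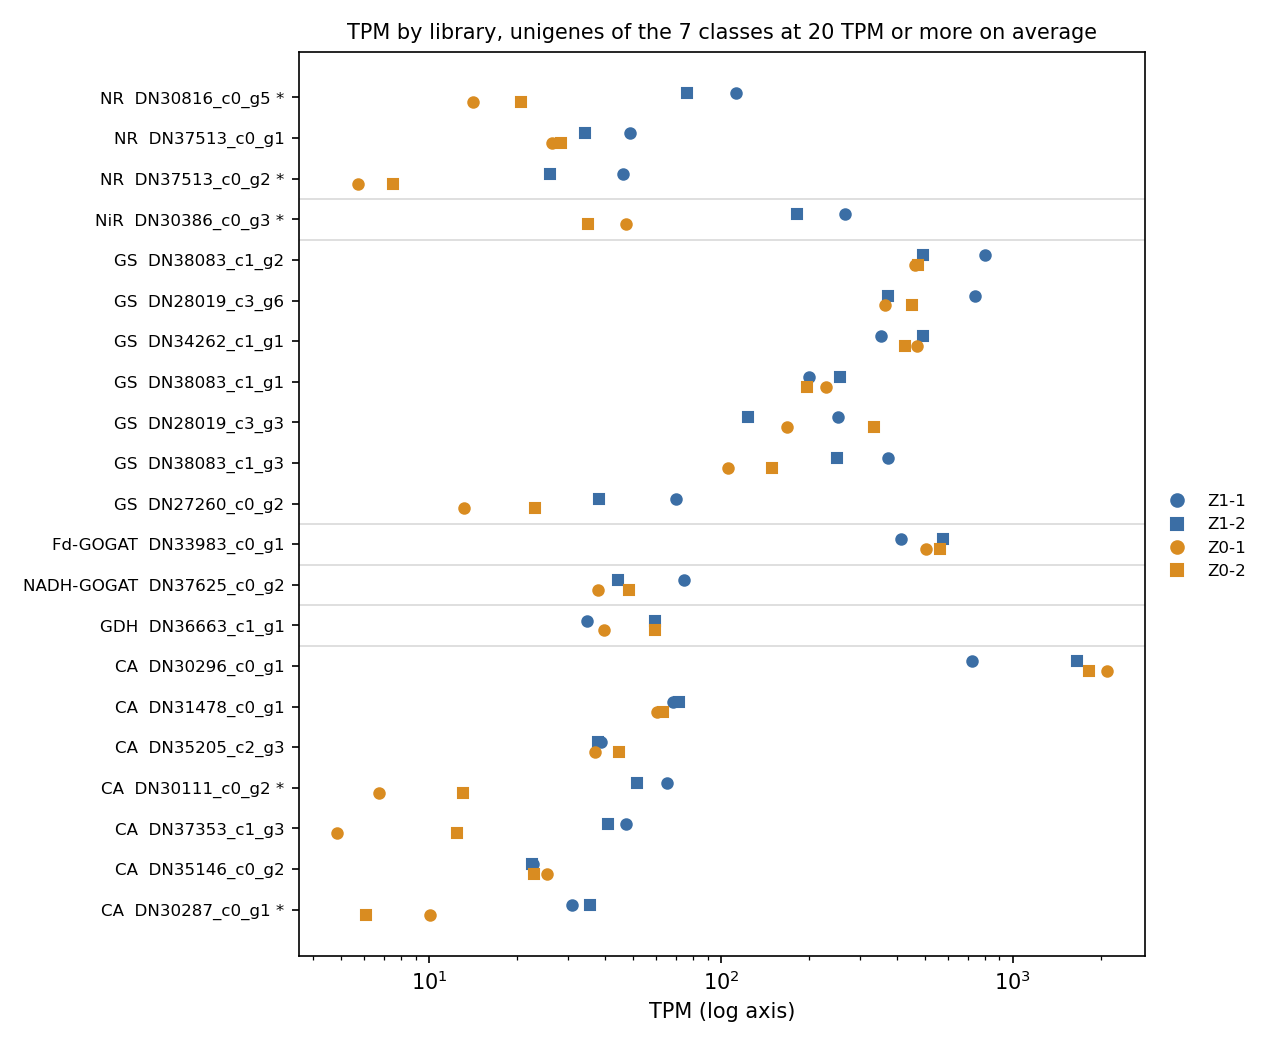
TPM (log axis) in each library of the 21 unigenes of the 7 classes with a mean of 20 TPM or more, grouped by class, with circles for library 1, squares for library 2, blue for Z1 and orange for Z0. NR is nitrate reductase, NiR nitrite reductase, and an asterisk marks a called unigene, of which 5 are shown, all with both Z1 libraries to the right of both Z0 libraries.

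Glutamine synthetase was the class with the most unigenes. Its sum was above that of carbonic anhydrase in both Z1 libraries and in Z0-2, and below it in Z0-1. Its 17 members summed to 2807 and 2040 TPM in Z1-1 and Z1-2, against 1828 and 2073 TPM in Z0-1 and Z0-2. By limma 0 of the 17 were called, with 3 (17.6%) higher and 1 (5.88%) lower by the unadjusted rule, against 16.5% and 7.71% of all unigenes. Of these members, 11 matched plant proteins and held nearly all of the level, and 6 matched proteins of fungi or animals.

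The chloroplastic form, named the leaf isozyme GS2, did not separate the conditions in TPM as listed. Its 3 unigenes summed to 555 and 751 TPM in Z1 libraries, against 699 and 626 TPM in Z0 libraries, and the Z1 mean was 0.985 times the Z0 mean. GS2 DN34262_c1_g1 had 352 and 493 TPM in Z1 libraries, against 468 and 428 TPM in Z0 libraries, with a log2 fold change of -0.10 (SE 0.25, limma adjusted p = 0.779). GS2 DN38083_c1_g1 had 200.45 and 256 TPM in Z1 libraries, against 229 and 196 TPM in Z0 libraries, with a log2 fold change of 0.09 (SE 0.23, limma adjusted p = 0.781). In both unigenes the conditions overlapped. Without carlavirus-matched unigenes the log2 fold changes were -0.40 for DN34262_c1_g1 and -0.20 for DN38083_c1_g1.

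The 8 plant-matched unigenes named for cytosolic isozymes, for the nodule isozyme or for glutamine synthetase without a compartment summed to 2249 and 1287 TPM in Z1 libraries, against 1123 and 1436 TPM in Z0 libraries. Only Z1-1 stood above both Z0 libraries. GLN1 DN38083_c1_g2, of 1352 bases, had 803 and 493 TPM in Z1 libraries, against 463 and 473 TPM in Z0 libraries, with a log2 fold change of 0.43 (SE 0.30, limma adjusted p = 0.406).

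GLN1 DN38083_c1_g3, of 630 bases and from the same component, had 373 and 249 TPM in Z1 libraries, against 106 and 149 TPM in Z0 libraries. Its log2 fold change of 1.27 (SE 0.31) missed the threshold with a limma adjusted p of 0.0838, although its groups did not overlap. A short unigene of 390 bases, DN27260_c0_g2, was likewise apart, with 69.9 and 38.3 TPM in Z1 libraries, against 13.2 and 23.0 TPM in Z0 libraries (log2 fold change 1.52, SE 0.42, limma adjusted p = 0.104). The pair named for the nodule isozyme overlapped between conditions. DN28019_c3_g6 had 743 and 374 TPM in Z1 libraries, against 364 and 450 TPM in Z0 libraries, and DN28019_c3_g3 had 251 and 124 TPM in Z1 libraries, against 168 and 335 TPM in Z0 libraries. GLN1 and GS2 unigenes were placed in 1 Trinity component, so that reads may have been split between the forms. The remaining plant-matched GS unigenes stayed at or under 6.06 TPM in every library.

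The summed level of the cytosolic or unspecified form was 4.06 and 1.72 times that of the chloroplastic form in Z1 libraries, against 1.61 and 2.29 times in Z0 libraries. The Z1 libraries differed from each other more than the means of the conditions did.

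Glutamate synthase occurred in both of its plant forms. The ferredoxin-dependent form, FdGOGAT DN33983_c0_g1, was 1 unigene of 5548 bases, the longest member. It had 413 and 577 TPM in Z1 libraries, against 504 and 561 TPM in Z0 libraries. The listed values of Z1 enclosed those of Z0, and the log2 fold change was -0.12 (SE 0.25, limma adjusted p = 0.738). It was -0.42 with the carlavirus-matched unigenes left out and TPM rescaled, and -0.58 with TMM.

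The 10 unigenes of the NADH-dependent form summed to 118 and 80.7 TPM in Z1 libraries, against 69.3 and 77.9 TPM in Z0 libraries, several-fold below the ferredoxin-dependent form in all 4 libraries. By limma 0 of the 10 were called, with 2 (20%) higher and 2 (20%) lower by the unadjusted rule, against 16.5% and 7.71% of all unigenes. DN37625_c0_g2 had the highest level, with 74.4 and 44.4 TPM in Z1 libraries, against 38.0 and 48.3 TPM in Z0 libraries, and DN38072_c0_g1, the longest of the class at 4247 bases, had 24.8 and 18.9 TPM in Z1 libraries, against 16.3 and 16.9 TPM in Z0 libraries. Their log2 fold changes were 0.42 and 0.37, with limma adjusted p of 0.436 and 0.362, and the groups of the first overlapped. DN37625_c0_g1 came closest to a call, with 9.64 and 9.05 TPM in Z1 libraries, against 3.24 and 2.77 TPM in Z0 libraries (log2 fold change 1.37, SE 0.23, limma adjusted p = 0.0505). The other 7 unigenes of the class had means under 5 TPM, and 2 of these 7 matched fungal proteins.

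Glutamate dehydrogenase had 9 members, of which limma called 0, and 0 passed the unadjusted rule in either direction. Its level was carried by DN36663_c1_g1, with 34.6 and 59.3 TPM in Z1 libraries, against 39.8 and 59.5 TPM in Z0 libraries (log2 fold change -0.10, SE 0.37, limma adjusted p = 0.855). The second library was the higher one in both conditions, and the log2 fold change was -0.39 without carlavirus-matched unigenes. DN27281_c0_g1, whose Swiss-Prot name is the NADP-specific form, had 7.25 and 5.72 TPM in Z1 libraries, against 4.41 and 5.73 TPM in Z0 libraries, and its groups just overlapped. The other 7 had means under 5 TPM. Among them DN13575_c0_g1, matched to an animal protein, was listed at 6.52 TPM in Z1-1 and at 0 in Z1-2, against 0 in Z0-1 and 1.07 TPM in Z0-2, and DN38682_c0_g1, with a Swiss-Prot match in rice and no Nr match, was listed at 6.97 TPM in Z1-2 and at 0 in the other 3 libraries. The level of each lay almost wholly in 1 library.

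**Figure D3:**
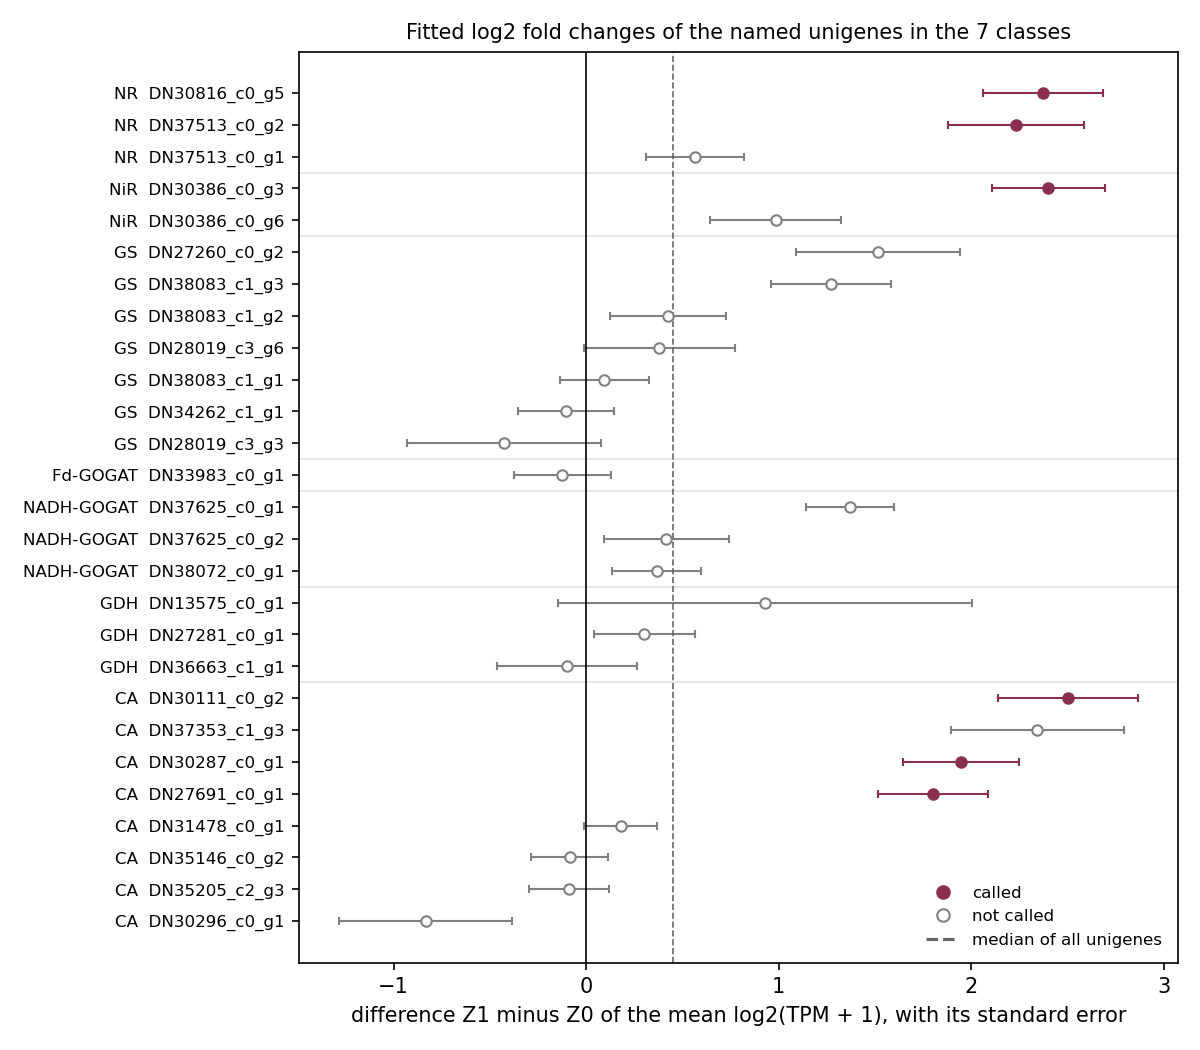
Fitted log2 fold change (Z1 minus Z0 of the mean log2(TPM + 1), horizontal axis) with its standard error for the named unigenes of the 7 classes, sorted within each class, with filled points for called unigenes and open points for the others. The called points lie between 1.80 and 2.50, and the dashed line marks the median of all unigenes at 0.45.

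Carbonic anhydrase divided into an alpha and a beta type, which are unrelated in sequence. The 4 alpha unigenes summed to 149 and 131 TPM in Z1 libraries, against 21.9 and 32.9 TPM in Z0 libraries, and the 5 beta unigenes to 887 and 1818 TPM in Z1 libraries, against 2229 and 1963 TPM in Z0 libraries. The beta type was the more abundant in each library. The alpha sum was higher in both Z1 libraries and the beta sum lower, with Z1 means of 5.11 and 0.645 times the Z0 means. This split was set after values were seen, and the lower beta sum was carried by DN30296_c0_g1, which was not called.

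All 4 alpha unigenes, from 3 components, had both Z1 libraries above both Z0 libraries, as did 41.5% of all unigenes. All 4 were also higher by the unadjusted rule, against 16.5% of all unigenes. By the adjusted test 2 of the 4 (50%) rose, against 3.2% of all unigenes. ACA7 DN30111_c0_g2 had 65.4 and 51.6 TPM in Z1 libraries, against 6.74 and 13.1 TPM in Z0 libraries (log2 fold change 2.50, SE 0.36, limma adjusted p = 0.0438). ACA1 DN30287_c0_g1, matched to a chloroplastic alpha form, had 30.8 and 35.7 TPM in Z1 libraries, against 10.1 and 6.07 TPM in Z0 libraries (log2 fold change 1.95, SE 0.30, limma adjusted p = 0.0464). In both, the lower Z1 library was well above the higher Z0 library. ACA1 lost its call without carlavirus-matched unigenes (log2 fold change 1.68, limma adjusted p = 0.0639) and with TMM (1.52, limma adjusted p = 0.0737). ACA7 DN30111_c0_g2 kept its call in both settings (2.24 and 2.07, limma adjusted p = 0.0448 and 0.0479). ACA7 DN37353_c1_g3 had 47.4 and 41.1 TPM in Z1 libraries, against 4.85 and 12.5 TPM in Z0 libraries, but its Z0 libraries differed and it was not called (log2 fold change 2.35, SE 0.45, limma adjusted p = 0.0586). ACA7 DN30111_c0_g3 was a minor unigene of 0.24 to 5.31 TPM.

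The beta type was carried by DN30296_c0_g1, named chloroplastic carbonic anhydrase, which was the most abundant of all 84 members. It had 724 and 1663 TPM in Z1 libraries, against 2100.41 and 1824 TPM in Z0 libraries. Both Z1 libraries lay below both Z0 libraries, but Z1-2 was much nearer to Z0 than to Z1-1, and the log2 fold change of -0.83 (SE 0.45, limma adjusted p = 0.292) was not called. A different beta unigene, DN27691_c0_g1, rose, with 33.4 and 22.6 TPM in Z1 libraries, against 6.40 and 8.02 TPM in Z0 libraries (log2 fold change 1.80, SE 0.29, limma adjusted p = 0.0473). Its call was lost without carlavirus-matched unigenes (log2 fold change 1.54, limma adjusted p = 0.0529) and with TMM (1.38, limma adjusted p = 0.0648). The others were close to level. DN31478_c0_g1 had 68.4 and 71.7 TPM in Z1 libraries, against 60.3 and 63.2 TPM in Z0 libraries. DN35205_c2_g3 (beta carbonic anhydrase 5) had 38.8 and 37.9 TPM in Z1 libraries, against 37.1 and 44.9 TPM in Z0 libraries. DN35146_c0_g2, which has no Swiss-Prot name, had 22.7 and 22.5 TPM in Z1 libraries, against 25.3 and 22.9 TPM in Z0 libraries. Their log2 fold changes ran from -0.09 to 0.18, with limma adjusted p of 0.525 to 0.776.

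Genes next to the GS and GOGAT cycle were counted in the same way. Of 8 unigenes for asparagine synthetase and asparaginase, 2 (25%) were called higher, against 3.2% of all unigenes. Both are named for asparaginase, which releases ammonium from asparagine. DN31535_c1_g2 had 166 and 200.76 TPM in Z1 libraries, against 46.6 and 59.7 TPM in Z0 libraries (log2 fold change 1.77, limma adjusted p = 0.040), and DN36404_c0_g2 had 39.2 and 28.7 TPM in Z1 libraries, against 7.34 and 10.47 TPM in Z0 libraries (log2 fold change 1.82, limma adjusted p = 0.0474). Both stood at several times their Z0 level in each Z1 library. Of 17 aspartate and alanine aminotransferases, which carry amino groups on from glutamate, limma called 0. By the unadjusted rule 2 (11.8%) were higher and 0 lower, against 16.5% and 7.71% of all unigenes. Of 6 unigenes for urease and arginase limma called 0, and 0 passed the unadjusted rule.

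The 32 members outside these classes were placed on the map by KEGG but carry other names. Of them 1 (3.12%) was called higher and 2 (6.25%) lower, against 3.2% and 1.8% of all unigenes. They comprised 11 pentatricopeptide repeat proteins, 10 cytochrome b5 or desaturase proteins, 3 formamidases, 2 cyanate hydratases, 2 unigenes matched to nitrate transporters without a Swiss-Prot name, and 4 others. Cytochrome b5 is a small electron carrier that shares a haem domain with nitrate reductase. Cytochrome b5 DN32576_c1_g3 rose, with 71.9 and 57.2 TPM in Z1 libraries, against 15.3 and 19.99 TPM in Z0 libraries (log2 fold change 1.82, SE 0.25, limma adjusted p = 0.0412). The most abundant one, DN29508_c3_g2, had 170.18 and 134 TPM in Z1 libraries, against 81.0 and 113 TPM in Z0 libraries, and was not called (log2 fold change 0.65, limma adjusted p = 0.195).

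Both members that fell were nearly confined to Z0 libraries. DN34960_c0_g3, matched to a high-affinity nitrate transporter of the NRT2.7 kind, escaped the exclusion of transporters because it has no Swiss-Prot name. It had 0.72 and 1.34 TPM in Z1 libraries, against 29.1 and 52.3 TPM in Z0 libraries (log2 fold change -4.32, SE 0.38, limma adjusted p = 0.0334). The formamidase fmdA DN35022_c1_g4, whose Swiss-Prot match is bacterial and whose Nr match is *Fragaria*, had 0.06 and 0 TPM in Z1 libraries, against 9.09 and 10.2 TPM in Z0 libraries (log2 fold change -3.37, SE 0.25, limma adjusted p = 0.0334). Formamidase releases ammonium from formamide. The larger formamidase of the same component, DN35022_c1_g1, had 89.5 and 77.6 TPM in Z1 libraries, against 51.7 and 61.4 TPM in Z0 libraries, and was not called (log2 fold change 0.56, limma adjusted p = 0.173). The 3 formamidase unigenes together had 92.1 and 80.4 TPM in Z1 libraries, against 62.5 and 72.5 TPM in Z0 libraries, so that their sum did not follow fmdA.

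The pentatricopeptide repeat proteins, a large family that binds organellar RNA, all had means under 5 TPM and none was called by limma or by the unadjusted rule. Cyanate hydratase DN25973_c0_g2, which breaks down cyanate, had 47.2 and 43.7 TPM in Z1 libraries, against 43.8 and 78.2 TPM in Z0 libraries, with the high value in Z0-2 alone. DN34131_c0_g1 had 310.35 and 302 TPM in Z1 libraries, against 181 and 218 TPM in Z0 libraries (log2 fold change 0.62, limma adjusted p = 0.136). Its annotations disagree, with a Swiss-Prot name of a helicase and polymerase-containing protein and a KEGG entry for glutamate dehydrogenase, so that it was kept out of the GDH class.

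Some members match organisms other than plants. Of the 12 members with a fungal Swiss-Prot match, 11 had both Z0 libraries above both Z1 libraries (91.7%, against the 18.2% of all unigenes given above), and the exception was the formamidase DN35022_c1_g1, whose Nr match is a plant. The 8 of them whose Nr match is *Anthurium* were 5 glutamine synthetases, 2 NADH-dependent glutamate synthases and 1 cyanate hydratase. They summed to 1.82 and 5.13 TPM in Z1 libraries, against 15.4 and 21.5 TPM in Z0 libraries. The 3 matched to *Hordeum*, all NADP-specific GDH, summed to 1.62 and 2.12 TPM in Z1 libraries, against 3 and 4.43 TPM in Z0 libraries. None of these was called by limma, and 3 of the 12 (25%) were lower by the unadjusted rule, against 7.71% of all unigenes. The 12 came from 8 components, so that they are not 12 independent counts. Every unigene in the table reached 1 TPM in at least 1 library. Several of the 11 with higher Z0 libraries, such as DN25438_c0_g1 and DN254_c0_g1, did so only in Z0 libraries. Those entered through the condition in which they were high, and the part of this selection in the count was not tested. Of all unigenes, 988 had their best Nr match in *Anthurium*, with 0.187% and 0.205% of TPM in Z1 libraries, against 1.61% and 1.87% in Z0 libraries, and the part of other organisms in these levels was not tested.

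The 4 members with an animal Swiss-Prot match summed to 15.5 TPM in Z1-1 and 0 in Z1-2, against 0.31 and 1.57 TPM in Z0 libraries, so that their level lay almost wholly in 1 library. The 15 rice-matched unigenes of the map that were left out had 2.07 to 87.8 TPM in Z1-2 and at most 0.8 TPM in any other library. With fungal, animal, bacterial, protist and unnamed Swiss-Prot matches set aside, 62 plant-matched members remained. By limma 7 (11.3%) were higher and 0 lower, against 3.2% and 1.8% of all unigenes. By the unadjusted rule 16 (25.8%) were higher and 0 lower, against 16.5% and 7.71%. This split was set after values were seen. It set aside both members called lower, DN35022_c1_g4 and DN34960_c0_g3, although their Nr matches are plants (*Fragaria* and *Erythranthe*). The nitrate and nitrite reductase, GS2, GLN1, FdGOGAT and carbonic anhydrase values given above are all from plant-matched unigenes, apart from DN35146_c0_g2, which has no Swiss-Prot match.

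**Figure D4:**
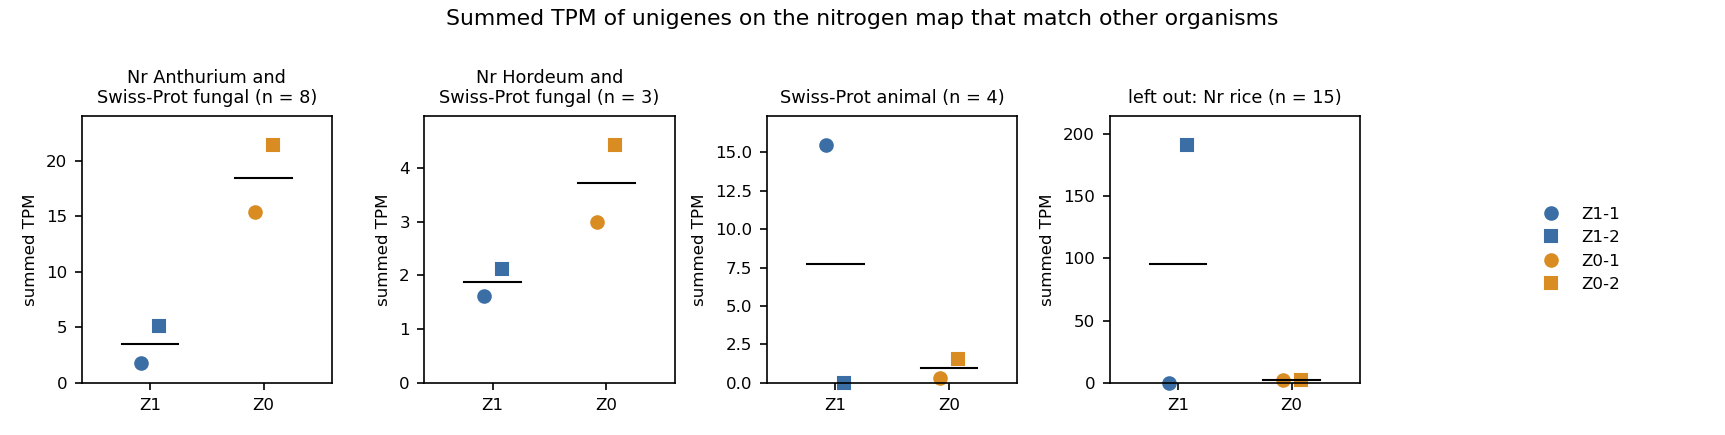
Summed TPM (vertical axes from 0, scaled per panel) of unigenes on the nitrogen map that match other organisms, in the libraries of Z1 and Z0, with circles for library 1, squares for library 2 and a bar at the mean. The unigenes with a fungal match and an Nr match in *Anthurium* or *Hordeum* lie higher in both Z0 libraries, the animal matches at 15.5 TPM in Z1-1 alone, and the excluded rice matches at 191 TPM in Z1-2 alone.

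Beside the map itself, the members shared other annotations. Of the 84, 38 were also on the map of alanine, aspartate and glutamate metabolism and 32 on that of glyoxylate and dicarboxylate metabolism, on which all 17 glutamine synthetases are drawn. Of 81 members with a GO term, the 4 nitrate reductases carried the term for the response to light stimulus, and 14 members carried the chloroplast term, among them 7 carbonic anhydrases and both nitrite reductases. Members were 212 to 5548 bases long with a median of 726.5, and 46 of the 84 had a mean under 5 TPM.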

How the data were processed

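RNA of 2 conditions was compared in 4 libraries. The authors assembled the reads with Trinity, quantified them with Salmon and annotated with DIAMOND, and their methods speak of reads of different species being co-assembled. The submitters' processing notes also name cutadapt, FastQC and edgeR (versions: not given in the sources used here). What the authors deposited is 1 table of TPM (normalized values, not counts), unigene length and annotation, so depth is unknown. The labels name genomic DNA and an adipose type, while their protocol describes poly(A) RNA of leaves. Unigenes with 1 TPM or more in at least 1 library were kept, which is all 73159. limma 3.58.1 (R 4.3.3) with a trended prior and no covariate was fitted to log2(TPM + 1), as the values are not counts, and was tested on simulated data. Tables and plots used Python 3.11.15, pandas 2.3.3, numpy 2.4.6 and matplotlib 3.10.9. The members and lists were chosen with earlier results of these data known. Named are all called members, the 3 of highest mean TPM per class and others at 20 TPM or more. The split by Swiss-Prot name, GS and CA form, and organism matches were set after values were seen. Alternatives were pseudocounts, filters, scalings, left-out unigenes or libraries, component sums, no fold threshold, unadjusted p and the library number as a block.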

Additional observations from a re-analysis of the deposited data

How the results depend on the processing

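Of the members called, 7 were higher and 2 lower in Z1. The higher and lower counts were 0 and 2 with a pseudocount of 0.1 TPM, 0 and 0 with one of 5 TPM, 13 and 2 of 44 with a filter at 5 TPM, 3 and 2 with TMM, 11 and 3 without rice-matched unigenes, 4 and 2 without carlavirus-matched ones, 0 and 0 of 65 with TPM summed per Trinity component, and 16 and 5 with an unadjusted p. Over all unigenes the counts fell too, to 354 and 199 with the pseudocount of 0.1, 0 and 0 with that of 5, and 4 and 1 of 30459 per component, against 2344 and 1317. The members' limma counts of 0 stand beside unadjusted counts of 17 and 8 with the pseudocount of 0.1, 12 and 2 with that of 5, and 13 and 5 per component. Leaving out a library gave 0 to 2 higher and 0 to 1 lower members. A lone library is assumed there to vary like the other condition. Components can join different genes, as NIA2 and GIGANTEA in DN30816_c0.

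The library number as a replicate block gave 8 higher and 2 lower members, and deviations of equally numbered libraries correlated at -0.087, so the numbers were not taken as pairs. The block kept 8 of the 9 called members. Without *Anthurium*-matched unigenes, chosen after seeing the data, 8 and 2 of 74 were called, and with median-ratio scaling 6 and 2.

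The members' median log2 fold change of 0.31 was 0.15 with a pseudocount of 5, 0.50 with the 5 TPM filter, 0.10 with median-ratio scaling, -0.05 with TMM and 0.10 without carlavirus-matched unigenes. It was 0.13 to 0.42 when a library was left out. The median of all unigenes was 0.25 with median ratio and 0.13 with TMM, against 0.45.

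Over 666 pairs of a named member and an alternative, 68 lost a call, 9 gained one and 28 changed sign. Changes of sign were in values not called, except that fmdA DN35022_c1_g4 was 0.41 when summed with its component. With TMM they were -0.034 for DN37625_c0_g2, -0.071 for DN38072_c0_g1, -0.28 for DN31478_c0_g1, -0.086 for DN27281_c0_g1, -0.033 for GLN1 DN38083_c1_g2, -0.078 for DN28019_c3_g6 and -0.36 for GS2 DN38083_c1_g1. With median ratio they were -0.10 for DN31478_c0_g1 and -0.19 for GS2 DN38083_c1_g1, and without carlavirus-matched unigenes -0.11 and -0.20. Summed per component they were 0.13 for DN35205_c2_g3, 0.005 for DN35146_c0_g2 and 0.14 for DN28019_c3_g3. With a library left out, values ran from -0.222 to 0.047 for DN35205_c2_g3, -0.77 to 0.051 for DN25973_c0_g2, -0.36 to 0.12 for FdGOGAT DN33983_c0_g1, -0.48 to 0.28 for DN36663_c1_g1, -0.53 to 2.39 for DN13575_c0_g1, -0.11 to 0.88 for DN28019_c3_g6, -0.35 to 0.14 for GS2 DN34262_c1_g1, -0.082 to 0.27 for GS2 DN38083_c1_g1, -0.94 to 0.082 for DN28019_c3_g3 and -0.24 to 0.73 for DN20212_c0_g2. The causes were not tested.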
